A study of Mus musculus with 12 samples.

Results

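The strong BMAL1 regions at single promoters were 708 regions, 14.9% of all those deposited, that carried the most BMAL1 ChIP signal in EtOH-treated cells and lay at 1 gene start. A region counted when it lay within 1 kb of a start, taken as the upstream end of the gene's outermost annotated exon. It could not lie within 1 kb of a pair of opposite-strand starts, and it had to fall in the top 25% of all regions by the mean of the EtOH ChIP libraries. The other regions were 1847 weak ones at single promoters, 389 at bidirectional promoters and 1796 away from starts. The members touched 706 genes, 3.03% of the 23287 genes with a single position. Members were therefore chosen by the EtOH ChIP level, so that level, and its comparison with the 4-OHT ChIP level, are given as descriptions without a test.

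BMAL1 and its partner CLOCK form a basic helix-loop-helix activator that binds E-boxes, short palindromic DNA motifs, in the promoters and enhancers of rhythmic genes. Its targets include the genes of its own repressors, the PER and CRY proteins and the nuclear receptors REV-ERB alpha (Nr1d1) and REV-ERB beta (Nr1d2). PER2, in complex with CRY, is known for removing CLOCK-BMAL1 from DNA, and REV-ERBs repress genes with ROR elements, such as Cry1. In fibroblasts this loop runs in single cells without input from a tissue.

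The study treated mouse embryonic fibroblasts for 4 hours with 1 µM 4-hydroxytamoxifen (4-OHT) or with its solvent, 0.1% ethanol (EtOH), and measured BMAL1 on DNA and mRNA in order to compare cells with and without induced PER2. The cells of all 12 samples were of 129/sv background, lacked Per1, Per2, Nr1d1 and Nr1d2 on both alleles, and carried a PER2-ER transgene, a fusion of PER2 to a hormone-binding domain that responds to 4-OHT. Each of 6 groups had 2 libraries: 4-OHT BMAL1 ChIP, EtOH BMAL1 ChIP, 4-OHT input, EtOH input, 4-OHT mRNA and EtOH mRNA. The promoter that drives the transgene, the number of clones and the origin of the replicates are not given in the sources used here, so a p-value here covers no more than the spread among these libraries. No group without the transgene was treated, so 4-OHT and the active PER2-ER protein cannot be told apart.

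ChIP libraries held 13740997 and 20712373 reads with 4-OHT and 13502201 and 17635022 with EtOH, and input libraries held 12481308 and 33454366 reads with 4-OHT and 13736646 and 28264889 with EtOH. The mRNA libraries held 60267540 to 89695667 counted reads. Levels at regions are RP10M, reads per 10000000 library reads, without division by region length. The fibroblast label was met by the mRNA: 8 fibroblast markers summed to 17863 to 20373 CPM (library-scaled counts) per library, with Thy1 at 0, against at most 16.7 CPM for any of 4 lists of epithelial, endothelial, leukocyte and muscle markers. The knocked out genes still gave reads. Per1 had 38.1 and 45.4 CPM with 4-OHT and 42.2 and 36.7 CPM with EtOH. Per2 had 552 and 609 CPM with 4-OHT and 567 and 550 CPM with EtOH, and reads of the transgene and of the endogenous locus cannot be told apart in these counts. For Nr1d1 and Nr1d2, whose values are given with the mRNA results, the counts are those of a disrupted locus and say nothing of the protein.

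Promoter windows of some of the strongest members are given below, with the E-box motifs found in them. The windows below run from 250 bases before to 50 bases after the RefSeq start on GRCm38.p6, 5′ to 3′ on the gene's strand, and capitals mark E-box letters: CACGTG, or the related CATGTG and CACGTT read on either strand. Each window lies wholly within its member region.
Nr1d1 (chr11:98775328-98775627, minus strand): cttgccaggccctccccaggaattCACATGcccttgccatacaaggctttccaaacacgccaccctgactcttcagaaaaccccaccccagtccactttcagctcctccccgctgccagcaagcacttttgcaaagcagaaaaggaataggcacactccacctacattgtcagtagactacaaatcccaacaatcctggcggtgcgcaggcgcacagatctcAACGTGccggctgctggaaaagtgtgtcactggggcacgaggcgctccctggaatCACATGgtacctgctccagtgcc
Gm129 (chr3:95882179-95882478, minus strand): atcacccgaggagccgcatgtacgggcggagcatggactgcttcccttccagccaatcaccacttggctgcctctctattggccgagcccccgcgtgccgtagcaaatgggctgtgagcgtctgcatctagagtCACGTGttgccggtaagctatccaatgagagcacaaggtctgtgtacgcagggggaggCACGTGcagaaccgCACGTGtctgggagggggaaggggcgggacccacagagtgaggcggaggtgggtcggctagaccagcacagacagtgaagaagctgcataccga
Cry1 (chr10:85185005-85185304, minus strand): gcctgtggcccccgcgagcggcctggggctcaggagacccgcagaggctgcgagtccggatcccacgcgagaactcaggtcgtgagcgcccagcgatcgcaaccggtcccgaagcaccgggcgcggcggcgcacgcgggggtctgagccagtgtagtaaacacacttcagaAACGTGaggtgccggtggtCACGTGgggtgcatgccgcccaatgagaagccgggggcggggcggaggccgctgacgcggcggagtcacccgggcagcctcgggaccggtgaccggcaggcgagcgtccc
1810013L24Rik (chr16:8829850-8830149, plus strand): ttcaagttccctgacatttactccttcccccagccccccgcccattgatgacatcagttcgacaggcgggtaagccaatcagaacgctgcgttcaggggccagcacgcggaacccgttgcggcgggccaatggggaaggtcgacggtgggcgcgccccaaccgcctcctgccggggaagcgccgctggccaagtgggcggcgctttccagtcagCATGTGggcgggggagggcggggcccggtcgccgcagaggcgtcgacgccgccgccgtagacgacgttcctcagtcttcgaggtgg
Cry2 (chr2:92434020-92434319, minus strand): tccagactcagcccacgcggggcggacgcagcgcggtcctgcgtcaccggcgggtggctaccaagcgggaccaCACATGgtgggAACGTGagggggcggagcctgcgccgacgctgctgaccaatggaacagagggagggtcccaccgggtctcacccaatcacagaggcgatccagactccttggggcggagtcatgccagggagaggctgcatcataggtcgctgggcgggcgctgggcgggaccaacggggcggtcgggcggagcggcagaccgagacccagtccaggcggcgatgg
Tulp4 (chr17:6106580-6106879, plus strand): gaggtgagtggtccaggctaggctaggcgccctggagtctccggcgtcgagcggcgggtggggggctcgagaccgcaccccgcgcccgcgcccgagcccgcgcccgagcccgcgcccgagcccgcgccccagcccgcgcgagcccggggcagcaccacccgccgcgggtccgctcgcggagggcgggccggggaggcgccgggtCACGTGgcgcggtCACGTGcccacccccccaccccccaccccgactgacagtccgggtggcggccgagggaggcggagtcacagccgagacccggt
Nptn (chr9:58581990-58582289, plus strand): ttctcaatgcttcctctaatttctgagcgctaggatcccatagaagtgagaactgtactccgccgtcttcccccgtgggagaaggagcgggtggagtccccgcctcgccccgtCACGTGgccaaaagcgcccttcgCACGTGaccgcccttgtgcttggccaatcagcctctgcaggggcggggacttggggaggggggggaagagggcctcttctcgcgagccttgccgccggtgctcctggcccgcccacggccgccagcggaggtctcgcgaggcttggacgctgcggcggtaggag
Gm129, the file's name for Ciart, holds 3 CACGTG matches, which begin 116, 58 and 44 bases before the start. Cry1 holds 1, 60 bases before the start, with a CACGTT-type match 79 bases before it. Tulp4 holds 2 that begin 46 and 33 bases before the start, and Nptn holds 2 that begin 137 and 114 bases before it. The windows of Nr1d1, 1810013L24Rik and Cry2 hold no CACGTG. They hold CATGTG-type matches, 226 bases before and 28 bases after the start in Nr1d1, 36 bases before it in 1810013L24Rik and 177 bases before it in Cry2. Nr1d2, whose region ranked above that of Gm129, has a window with none of the 3 motifs. Only the windows were searched, so the rest of its 1186 bp region, as of the other regions, may hold matches.

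The 12 highest members were led by core clock genes. The Nr1d1 region (mm10 chr11:98773565-98776198, 2634 bp, across the start) had 539 and 591 RP10M with 4-OHT, against 3077 and 2986 with EtOH. The Nr1d2 region (chr14:18238213-18239398, across the start) had 424 and 498 with 4-OHT and 2868 and 2700 with EtOH. In both, the 4-OHT libraries lay far below the EtOH libraries and far above the inputs, which were at 5.82 to 28.1 RP10M. The region of Gm129, which encodes the repressor CIART (chr3:95881678-95883058), had 332 and 337 with 4-OHT and 2426 and 2218 with EtOH. The Per2 region (chr1:91458543-91459894) had 289 and 317 with 4-OHT and 1777 and 1749 with EtOH. That of Cry1, a CRY repressor gene (chr10:85184459-85185659), had 238 and 270 with 4-OHT and 1638 and 1493 with EtOH. The Cry2 region (chr2:92433607-92434523) had 134 and 162 with 4-OHT and 912 and 904 with EtOH. All 4 covered their gene's start. Both 4-OHT libraries lay below both EtOH libraries at each, as at every member and at 98.0% of all regions.

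Genes outside the clock stood beside these. The Tulp4 region (chr17:6106355-6107312) had 137 and 167 RP10M with 4-OHT and 1049 and 760 with EtOH. The region of Nptn, which encodes the cell adhesion protein neuroplastin (chr9:58581580-58582605), had 154 and 164 with 4-OHT and 838 and 823 with EtOH. Those of 1810013L24Rik, Ptprs, a receptor tyrosine phosphatase gene, and Khdrbs1, which encodes an RNA-binding protein, had mean EtOH levels of 1204, 782 and 779, and mean 4-OHT levels of 226, 146 and 144. The highest member of all, at Rn45s, was of another kind and is described with the high-input members.

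**Figure D1:**
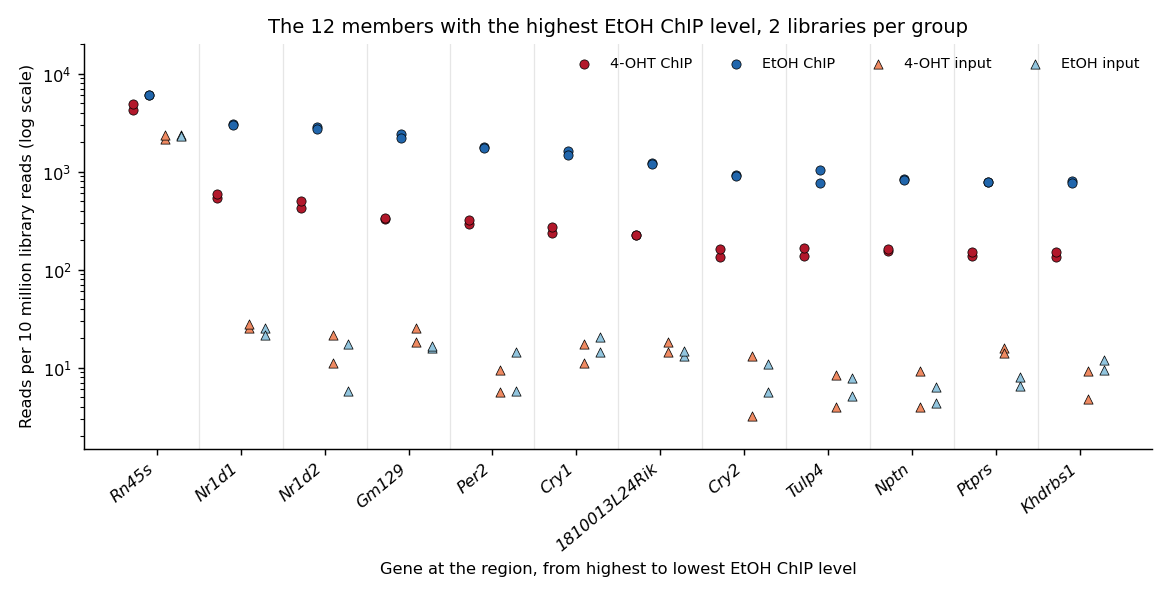
Level of the 12 highest members in each library, as RP10M on a log scale. At 11 of them the 4-OHT ChIP points sit well below the EtOH ChIP points and well above the inputs (triangles), while at Rn45s the inputs are near the ChIP libraries.

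Of the 24 listed CLOCK-BMAL1 target genes, 23 were found in the table and 15 of these (65.2%) had a strong member, against 3.03% of all placed genes. The list was drawn up with earlier results of these data known and holds genes known for such binding, so its share is only a description. Among the repressors, Per3 had 85.9 and 104 RP10M with 4-OHT and 631 and 667 with EtOH. Bhlhe41, which encodes the repressor DEC2, had 2 member regions, one of which covers the start, with means of 26.9 with 4-OHT and 113 with EtOH. Per1 also had 2, one across the start, with means of 82.0 with 4-OHT and 387 with EtOH, and one whose centre lies 1124.5 bp downstream, with 9.46 and 12.6 with 4-OHT and 63.7 and 60.1 with EtOH.

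Among the output factors, the PAR bZIP genes Dbp, Hlf and Tef each had a member across the start. Mean levels with 4-OHT were 125, 77.4 and 27.8 RP10M, against 733, 329 and 105 with EtOH. A second Dbp region, centred 764.5 bp downstream of the start, had 49.5 and 48.8 with 4-OHT and 221 and 230 with EtOH. Wee1, a cell cycle kinase gene, had 75.7 and 79.2 with 4-OHT and 344 and 326 with EtOH. Nampt, which encodes an enzyme of NAD synthesis, was lower in rank, with 24.7 and 21.2 with 4-OHT and 85.9 and 81.1 with EtOH.

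The threshold itself cut through a continuum. Just inside it lay Slc35c1, Atl3, Idua and Syne3 with EtOH means of 46.0, 45.9, 45.8 and 45.8 RP10M. Just outside it lay Zfp593, Bcdin3d, Rfesd and 3230401D17Rik with 45.5, 45.3, 45.2 and 45.2. Members were long as well as high: their median length was 490 bp, against 192 bp for weak single-promoter regions and 249 bp for bidirectional ones, and 337 of the 708 exceeded 500 bp. Since the level is a count over the whole region, length enters it. A gene start lay inside 514 members (72.6%), inside 36.7% of the weak regions and inside 61.7% of the bidirectional ones. Members were centred on the start, with 355 of 708 centres (50.1%) upstream of it and 492 (69.5%) within 250 bp of it. Centres also lay within 250 bp of a start at 64.2% of weak regions and 80.5% of bidirectional ones. The authors' caller gave the members a median fold enrichment of 19.3, against 8.25 over all regions. The regions are named as peaks of the control, so this fold is not independent of the EtOH level that chose the members.

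The canonical E-box was common in these promoters. A RefSeq window was matched to 549 of the 706 member genes (77.8%). This is under 80%, so as a check of all members the motif shares are void, and they describe only the matched windows. CACGTG stood in 51.5% of the 549 windows, in 20.9% of 1218 windows of genes at weak regions, in 27.4% of 555 at bidirectional promoters, in 8.28% of all 17107 matched promoters and in 4.91% of those without a region. Windows with 2 or more matches made up 11.1% of the members' windows and 0.807% of all. The pattern of CACGTG or CATGTG repeated after 6 or 7 bases was found in 3 members' windows, those of Tulp4, Lamp1 and Hps1, and in 12 of all windows.

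Other motifs differed less between these groups of windows. CATGTG, read on both strands, was in 8.38% of the members' windows, 8.37% of weak ones and 11.4% of all. GGGCGG, the GC box, was in 78.5% of the members' windows, 77.3% of weak ones and 48.1% of all. CCAAT was in 37.9%, 37.4% and 38.9% of these, and TGACGTCA, the cyclic AMP response element, in 3.46%, 2.79% and 2.44%. CACGTT, looked for after the first motif counts were known, was in 6.92%, 6.90% and 4.88%. CACGTG and CATGTG are each contained in CANNTG, which was in 77.0% of the members' windows, 60.8% of weak ones and 68.7% of all.

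E-boxes lay close to the centre of the region. Within 50 bp of a member's centre the windows held 5.29 CACGTG matches per kb, at 50 to 100 bp 4.62, at 100 to 150 bp 3.55, and at 150 to 200 bp 1.09. At weak regions the density was 3.08 within 50 bp and 0.813 at 50 to 100 bp. Of 360 matches in the members' windows, 348 (96.7%) fell inside the region, which covered 62.7% of the window bases. When the genes with a window were ordered by EtOH level and divided into 5 bins of 109 or 110 genes, CACGTG stood in 61.8%, 58.2%, 51.8%, 43.6% and 42.2% of windows from the highest bin to the lowest. Windows with 2 or more matches made up 30% of the highest bin and 3.67% of the lowest.

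**Figure D2:**
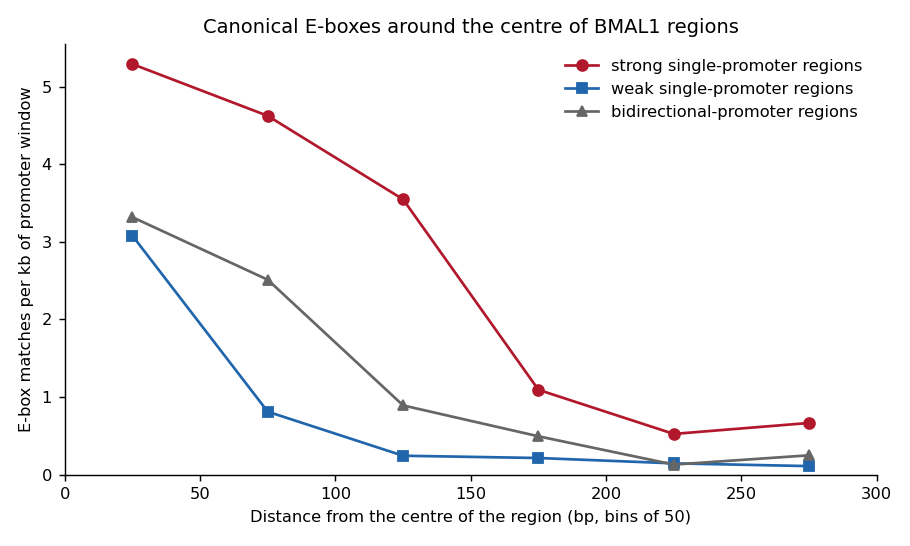
Matches of the canonical E-box per kb of promoter window (vertical) against distance from the region's centre in bins of 50 bp (horizontal), for strong single-promoter, weak single-promoter and bidirectional-promoter regions. Strong regions reach 5.29 matches per kb at the centre and keep 3.55 at 100 to 150 bp, where weak regions have 0.245.

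The 4-OHT libraries, which took no part in the choice of members, still showed ChIP signal above input at nearly every member. In edgeR's quasi-likelihood test of 4-OHT ChIP against 4-OHT input (Benjamini-Hochberg adjusted over all regions) 707 of 708 members were above input, where the share over all regions was 78.4%. The shares were 70.9% for weak single-promoter regions and 80.7% for bidirectional ones. Input was the only control, and the 5 members with high input, described below, were also called. A call above input alone therefore does not show BMAL1 binding. Members also had more reads to test, with medians of 29.5 and 50 in the 4-OHT ChIP libraries, against 8 and 14 at weak regions. With members chosen by signal per length, the share above input was 91.5%. The members' median level was 21.5 and 24.1 RP10M in the 4-OHT ChIP libraries and 4.81 and 4.78 in the 4-OHT inputs. Both ChIP libraries lay above both inputs at 706 members (90.5% of all regions). The median ratio to input was 5.19 for members, 3.44 for weak regions, 3.83 for bidirectional ones and 3.82 for all regions, and 515 members (72.7%) reached a ratio of 4 or more, as did 46.2% of all regions. Differences between these groups of regions were not tested. DESeq2 called 653 members, and TMM factors, which take most regions as unchanged, called 141.

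**Figure D3:**
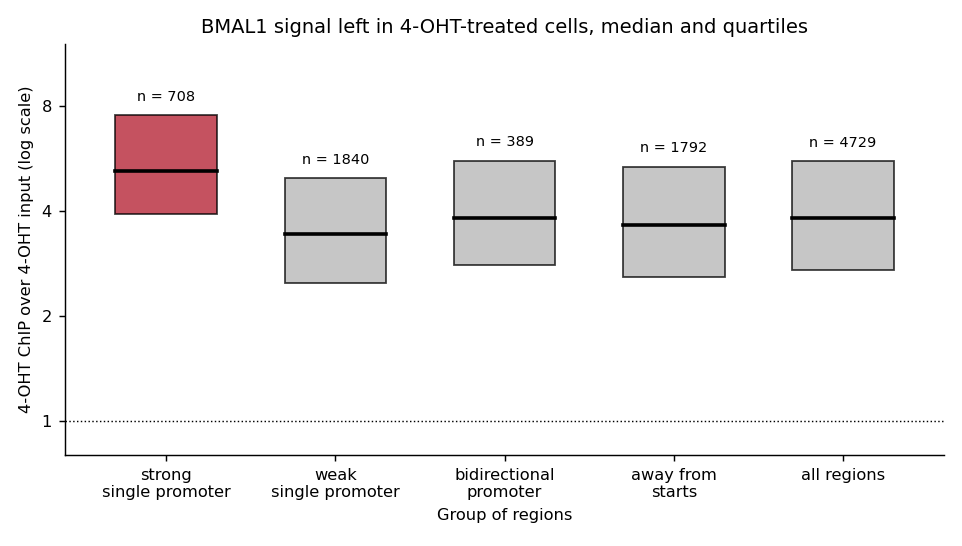
Ratio of 4-OHT ChIP to 4-OHT input per region (vertical, log scale), with the median as a line and the quartiles as a box, for each group of regions with a ratio. Strong single-promoter regions have a median of 5.19, against 3.44 for weak ones and 3.82 for all regions, and the boxes overlap.

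High ratios to input were found at several clock genes, though not at all of them, and at other genes. Per2 kept 39.9 times the 4-OHT input level, the highest ratio of any member, with a log2 difference of 5.16 ± 0.23 (SE) and an edgeR adjusted p of 3.96e-109. Nr1d2 kept 28.2 times its input (adjusted p = 1.80e-110) and Nr1d1 kept 21.0 times (adjusted p = 1.46e-106). Cry2 and Cry1 kept 18.1 and 17.6 times the input level, Gm129 15.3 times and Per3 9.83 times. Tulp4, Nptn, Khdrbs1 and Tbcel, outside the clock, kept 24.5, 24.0, 20.4 and 20.1 times. Of the CLOCK-BMAL1 list, Tef, Nampt and the downstream Per1 region kept 4.57, 2.99 and 3.50 times, under the members' median of 5.19. Most other regions of that list lay above it. Several of these ratios rest on which input is used. The 4-OHT inputs were 3.20 and 13.2 RP10M at Cry2 and 3.20 and 16.1 at Per3. Without 4-OHT input replicate 2 the log2 difference was 5.51 at Cry2, 4.87 at Per3, 5.36 at Nr1d2, 5.23 at Tulp4 and 5.29 at Nptn, against 3.86, 2.96, 4.65, 4.41 and 4.35 with both inputs, so the order of these genes by ratio is not fixed. The 1 member that was not called was the region at the starts of A730008H23Rik and of Hjurp, which encodes a centromere histone chaperone. It had 18.2 and 14.5 with 4-OHT ChIP and 19.2 and 9.86 in the 4-OHT inputs, so the groups overlapped (log2 difference 0.32, adjusted p = 0.315).

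Inputs gave no called difference between treatments: in edgeR 0 of 708 members and 0.0% of all regions were called, and DESeq2 also called 0. The median member had only 6 and 16 reads in the 4-OHT inputs and 6 and 12 in the EtOH inputs. On simulated counts this comparison recovered 24% of regions raised 2-fold and 10% of those changed 0.5-fold. The absence of calls therefore does not show that the inputs were equal. At an unadjusted p under 0.05 there were 33 members, 25 of them higher with 4-OHT, and 218 regions in all, 159 of them higher. Median input levels at the members were 4.81 and 4.78 with 4-OHT and 4.37 and 4.25 with EtOH.

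Between treatments, every member had both 4-OHT ChIP libraries below both EtOH ChIP libraries. This held for 98.0% of all regions, and edgeR called 706 of 708 members lower against 93.8% of all regions. The rule used the EtOH libraries, so nothing is read from these counts. The members took 0.273% and 0.303% of the reads of the 4-OHT ChIP libraries and 1.14% and 1.08% of those with EtOH. The median log2 ratio of 4-OHT over EtOH was -1.99, with quartiles of -2.21 and -1.77. After subtraction of the matched inputs, a median of 21.2% of the EtOH signal was left at members, 26.5% at weak regions and 24.8% at bidirectional ones. These ratios take library totals as the common scale, and no added reference chromatin is named in the sources used here. TMM factors gave a median of -0.27 with 140 members called lower and 6 called higher.

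Within the members the fraction left changed with the level. From the highest to the lowest of 5 bins of 141 or 142 members by EtOH level, the median log2 ratio was -2.26, -2.05, -1.95, -1.85 and -1.80, and the share left above input was 18.8%, 21.1%, 21.96%, 22.7% and 24.1%. The ratio of 4-OHT ChIP to 4-OHT input ran the other way, with medians of 8.98, 5.66, 4.97, 4.09 and 4.14. So the highest members kept the smaller share of their EtOH signal and the larger multiple of input. The bins are set on the EtOH libraries, which also form the share left, so that trend is a description without a test.

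In the upper 50% of the members by EtOH level, Gm129, Napa, Per3, Atp6v0b and Tbcel were among the 6 with the most negative ratio. Napa, which encodes the membrane fusion factor alpha-SNAP, had 18.9 and 20.3 with 4-OHT and 138 and 131 with EtOH, a log2 change in the edgeR fit of -2.76 ± 0.20 (SE). Atp6v0b, a subunit gene of the vacuolar proton pump, had 21.8 and 30.4 with 4-OHT and 202 and 149 with EtOH. Tbcel had 75.7 and 89.3 with 4-OHT and 570 and 532 with EtOH. The least negative ratios, apart from 3 members with high input, were at Kat6a, Piezo1 and Tsc1. Kat6a, a histone acetyltransferase gene, had 39.3 and 34.8 with 4-OHT and 78.5 and 94.7 with EtOH (log2 change -1.24 ± 0.20). Piezo1, a mechanically gated channel gene, had 44.4 and 42.5 with 4-OHT and 101 and 112 with EtOH. Tsc1, an inhibitor of mTOR signalling, had 33.5 and 43.0 with 4-OHT and 93.3 and 114 with EtOH. Relative to the other regions, under TMM factors, these 3 had positive ratios of 0.44, 0.39 and 0.27.

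**Figure D4:**
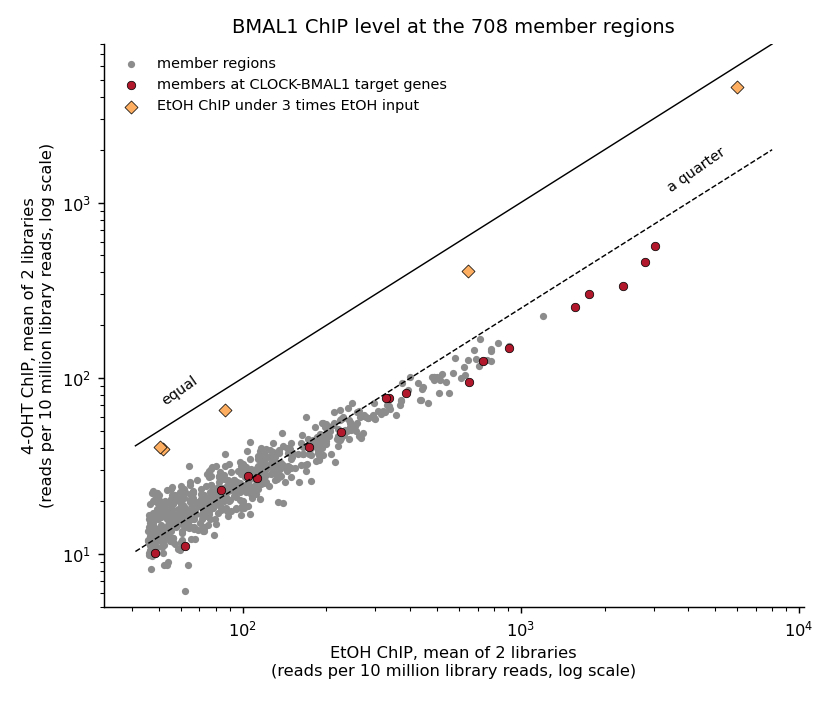
Mean 4-OHT ChIP level (vertical) against mean EtOH ChIP level (horizontal) of each member, as RP10M on log scales, with lines at equal levels and at 25% of the EtOH level. All points lie below the line of equal levels, members at CLOCK-BMAL1 target genes reach 3031 in EtOH level, and the 5 diamonds with high input lie near the line.

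The 5 members marked as diamonds went against their label as BMAL1 regions, since their EtOH ChIP level was under 3 times the EtOH input. They lay at Rn45s, the ribosomal RNA precursor (chr17:39843018-39846104), at Sfi1 (chr11:3193113-3193274), and 3 at the pseudogene Pisd-ps3 on unplaced sequence. Rn45s had 4243 and 4913 with 4-OHT ChIP and 5972 and 6029 with EtOH ChIP, and inputs of 2173 and 2365 with 4-OHT and 2350 and 2326 with EtOH. Sfi1 had 64.04 and 67.1 with 4-OHT ChIP and 91.8 and 81.7 with EtOH ChIP, over inputs of 33.3 to 39.5. Their log2 changes in the edgeR fit were -0.66 to -0.30, against a median of -1.97 for the members. Rn45s and Pisd-ps3 have near-identical copies, so reads there are of uncertain origin. Without the 5, the median change was also -1.97.

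In mRNA, 688 of the 706 member genes passed edgeR's expression filter and 10 had no count. In bulk RNA, fewer cells that express a gene and less RNA per cell cannot be told apart. With 4-OHT, 14 member genes were higher (2.03%, against 0.802% of all 13216 genes tested) and 14 were lower (2.03%, against 1.63%) by edgeR's quasi-likelihood test at a Benjamini-Hochberg adjusted p under 0.05. All other tested member genes missed the threshold, which with 2 libraries per group does not show that their mRNA was unchanged. Both 4-OHT ChIP libraries lay below both EtOH ChIP libraries at every member and at 98.0% of all regions, so that does not set genes apart. For weak single-promoter regions 14 of 1496 genes were higher and 31 lower, and for bidirectional ones 2 of 653 were higher and 6 lower. The median log2 change of the member genes was 0.00, with quartiles of -0.06 and 0.07, and that of all tested genes was also 0.00. Member genes had median levels of 21.6 RPKM (CPM per kb of exon) with 4-OHT and 21.9 with EtOH, against 11.2 in both for all tested genes and 19.4 and 19.9 for genes at weak regions.

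Of the CLOCK-BMAL1 targets with a strong member, 14 were tested, 5 were higher and 3 were lower. Of all 21 tested genes of the list, 7 were higher and 3 lower, against 0.802% and 1.63% of all tested genes. Calls went in both directions, but the falls include the disrupted Nr1d1 and Nr1d2. DESeq2 did not call the rises of Gm129 and Hlf. Among the repressor genes, Cry1 had 79.3 and 78.7 CPM with 4-OHT and 49.5 and 45.01 CPM with EtOH, a rise of 0.74 ± 0.07 on the log2 scale (SE, edgeR adjusted p = 8.64e-11). Cry2 had 29.4 and 31.9 CPM with 4-OHT and 19.4 and 18.8 CPM with EtOH (log2 change 0.68 ± 0.08, adjusted p = 3.42e-08). Both CRY genes rose and their regions kept 16.2% and 16.3% of the EtOH ChIP level. Gm129 had 9.92 and 11.6 CPM with 4-OHT and 8.81 and 7.29 CPM with EtOH (log2 change 0.41 ± 0.10, adjusted p = 0.0150). Bhlhe41 had 6.03 and 6.04 CPM with 4-OHT and 4.06 and 4.27 CPM with EtOH (log2 change 0.54 ± 0.11, adjusted p = 0.00231).

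Other repressor genes were lower. Nr1d1 had 16.4 and 17.5 CPM with 4-OHT and 49.2 and 56.0 CPM with EtOH, a log2 change of -1.63 ± 0.08 (SE, edgeR adjusted p = 1.20e-19). Nr1d2 had 39.4 and 35.3 CPM with 4-OHT and 83.4 and 92.6 CPM with EtOH (log2 change -1.24 ± 0.07, adjusted p = 4.47e-17). Per3 had 17.4 and 17.6 CPM with 4-OHT and 24.0 and 24.6 CPM with EtOH (log2 change -0.47 ± 0.08, adjusted p = 7.84e-05). At all 3 the treated libraries lay below the EtOH libraries. These genes are given here because they were called lower, so that separation adds no support to the calls. Per1 and Per2 gave log2 changes of 0.08 and 0.06 with adjusted p of 0.850 and 0.880.

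Of the output genes, Hlf alone passed the test. It rose at a low level, with 1.78 and 1.96 CPM with 4-OHT and 0.970 and 0.987 CPM with EtOH (log2 change 0.94 ± 0.18, edgeR adjusted p = 0.000770). Dbp did not pass, with 7.06 and 7.21 CPM with 4-OHT and 6.83 and 7.61 CPM with EtOH (log2 change -0.01 ± 0.10, adjusted p = 0.991), so its groups overlapped although its region kept 17.1% of the EtOH ChIP level. Tef had a log2 change of 0.22 (adjusted p = 0.0531), Wee1 of 0.20 (adjusted p = 0.164) and Nampt of -0.04 (adjusted p = 0.932).

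Of the 7 immediate early genes with a strong member, 2 were higher and 1 was lower, against 0.802% and 1.63% of all tested genes. Of all 25 listed, 7 were higher and 2 lower, and most of the listed genes had no strong member. Fosl2, an AP-1 subunit gene, had 123 and 128 CPM with 4-OHT and 254 and 233 CPM with EtOH (log2 change -0.96 ± 0.07, edgeR adjusted p = 5.94e-15). Junb, another AP-1 subunit gene, had 90.4 and 107 CPM with 4-OHT and 78.3 and 76.6 CPM with EtOH (log2 change 0.35 ± 0.07, adjusted p = 0.00115). Klf10, a TGF-beta-induced repressor gene, had 76.7 and 75.9 CPM with 4-OHT and 64.4 and 58.7 CPM with EtOH (log2 change 0.31 ± 0.07, adjusted p = 0.00348). Fosl1, Klf4, Klf9 and Dusp1 did not pass, with log2 changes of 0.14, -0.01, 0.03 and -0.22.

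Outside these lists, Gm15408 and Tmem86a, which encodes a membrane protein, had the most negative changes. Tmem86a had 23.1 and 23.2 CPM with 4-OHT and 61.7 and 57.4 CPM with EtOH (log2 change -1.36 ± 0.07, edgeR adjusted p = 3.44e-18). Gm15408, with 30 and 35 reads with 4-OHT and 81 and 84 with EtOH, had a log2 change of -1.63 ± 0.24 (adjusted p = 5.38e-06). Gadd45g, a stress-response gene, changed by -0.56, Il6ra, the interleukin 6 receptor gene, by -0.47, Stambpl1 by -0.37, Ccdc86 by -0.35 and Fbxo30 by -0.24. Zbed6 and Zc3h11a changed by -0.43 and -0.28. They share 1 member region and the span of Zbed6 lies within that of Zc3h11a on the same strand, so their counts may be shared.

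The other rises were small. Eif5a2, a translation factor gene, had 61.6 and 55.9 CPM with 4-OHT and 43.2 and 43.6 CPM with EtOH (log2 change 0.44 ± 0.07, edgeR adjusted p = 3.62e-05). Ccdc85b rose by 0.44, Hes1, a Notch-responsive repressor gene, by 0.41, and Lfng, which encodes a Notch-modifying enzyme, by 0.32. Cited2, a CBP/p300-binding regulator gene, rose by 0.26, and Txnip, a thioredoxin inhibitor gene, and Mthfd1l, of mitochondrial one-carbon metabolism, each by 0.23. With the tested genes in 5 bins of 137 or 138 by the EtOH level that chose the members, 8, 4, 1, 1 and 0 genes rose from the highest bin to the lowest, and 5, 1, 1, 3 and 4 fell, against 0.802% and 1.63% of all tested genes.

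**Figure D5:**
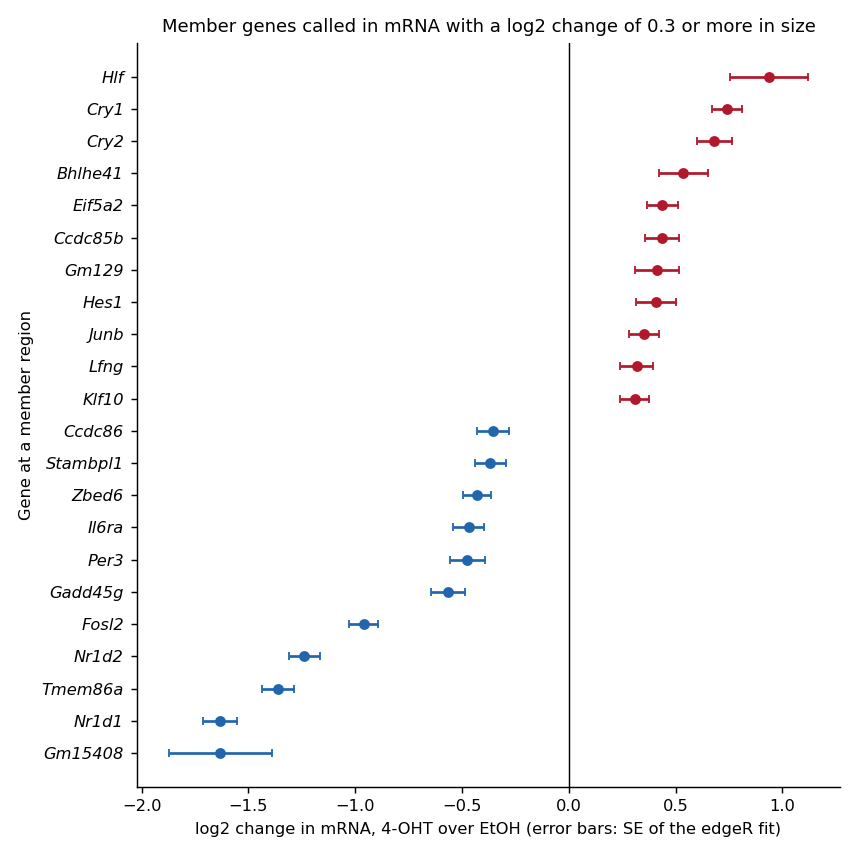
Change in mRNA, 4-OHT over EtOH, on the log2 scale (horizontal) for the 22 called member genes with a change of at least 0.3 in either direction, with the standard error of the edgeR fit as bars. Hlf, Cry1 and Cry2 lead the 11 rises plotted at 0.94, 0.74 and 0.68, and Gm15408 and Nr1d1 the 11 falls plotted at -1.63 each.

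These calls rest on 2 libraries per group. The count of higher member genes was 22 without 4-OHT replicate 1, 9 without 4-OHT replicate 2 and 8 without EtOH replicate 2. The call was lost without 4-OHT replicate 1 for 3 genes, Mthfd1l and Txnip among them, and without 4-OHT replicate 2 for Cited2, Fbxo30, Gm129, Hes1, Junb, Lfng and Mthfd1l. It was lost without EtOH replicate 1 for 9 genes, among them Bhlhe41, Ccdc85b, Cited2, Fbxo30, Hes1, Mthfd1l, Txnip and Zc3h11a. Without EtOH replicate 2 it was lost for Ccdc86, Cited2, Fbxo30, Gm129, Klf10, Lfng, Mthfd1l, Stambpl1, Txnip and Zc3h11a, and DESeq2 did not call Gm129 or Hlf. Without the genes of the CLOCK-BMAL1 list, 1.34% of the tested member genes were higher and 1.63% were lower.

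Other groups of genes also had strong members, most of them without a called change in mRNA. Of 39 autophagy and lysosome genes, 9 (23.1%) had one. Lamp1, a lysosomal membrane protein gene, had mean levels of 116 RP10M with 4-OHT and 627 with EtOH, and Atp6v1h, a subunit gene of the vacuolar proton pump, 36.5 with 4-OHT and 194 with EtOH. None of the 9 was called in mRNA by edgeR, and their median log2 change was -0.06. Of all tested genes 2.44% were called in either direction, and of tested member genes 4.07%, so 0 calls in lists this short say little. Of 24 genes of nucleotide and one-carbon synthesis, 7 (29.2%) had one, and of these Mthfd1l alone was called. Its region had means of 128 with 4-OHT and 758 with EtOH. Of 22 glycolysis genes 4 had one (Pfkl, Pgk1, Pkm and Ldha), and of 32 cell cycle genes 4 (Ccne2, Cdk4, Wee1 and Chek1), with 0 called in either list. Of the 29 E-box binding factors, 4 had one: Hif1a, Mnt, Max and Mxd3, partners or relatives of MYC or, for Hif1a, the hypoxia factor. Of 10 REV-ERB and ROR targets 3 had one, Cry1 among them, and of the 2 tested in mRNA 1 was higher and 1 lower. Of 23 sterol synthesis genes 3 had one, of 26 heat shock genes 2, and of 26 genes for enzymes that modify PER and CRY 1, Sirt1. Strong members were at 3 of 83 cytosolic ribosomal protein genes, 1 of 82 oxidative phosphorylation genes and 0 of 39 proteasome genes.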

How the data were processed

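BMAL1 ChIP, input and mRNA libraries were analysed from the authors' deposited files. Per the file headers, the authors counted reads per gene using featureCounts v1.5.0-p1 and a UCSC mm10 annotation, with strand taken into account. For 8 ChIP and input libraries the authors deposited read counts in 4740 regions named as MACS2 peaks of the control. No aligner is named in these sources. The submitters' processing notes also name bedtools 2.25.0 and DESeq2. The deposited region files carry the caller's fold enrichment (a ratio), −log10 p and q values and a score, which entered no test. The deposited signal table is named RPKM by the authors, but each value is 5 plus RP10M (reads scaled to 10000000 reads of that library) and region length does not enter it, so library totals were recovered from it as whole numbers.

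Region counts were fitted with edgeR 4.0.16 (R 4.3.3, robust quasi-likelihood) with library totals as offsets, and gene counts with TMM factors (0.992 to 1.01) and the default expression filter. Calls are at a Benjamini-Hochberg adjusted p under 0.05 over all regions or genes tested. CPM uses library totals of counted reads times TMM factors. DESeq2 1.42.0 was an alternative. The fits were tested on simulated data: of genes changed 2-fold upwards, 100% were recovered in mRNA, and of those changed 0.5-fold, 86%. For 4-OHT ChIP against input, 52% of regions raised 2-fold and 100% of those raised 4-fold were recovered. False calls numbered 15 in mRNA and 7 in this ChIP comparison. The simulation gave every feature the same dispersion and changed only features above a lowest mean count. Recovery in the real data may therefore differ.

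The members, lists and named genes were chosen with earlier results of these data known. Named regions were the 12 highest members, those at CLOCK-BMAL1 targets, the 6 most and 6 least negative changes in the upper 50% by EtOH level, the 5 lowest EtOH ChIP to input ratios, and the 4 regions on each side of the threshold. Named genes were the 12 largest rises and falls among called member genes and called genes of a list. The remaining called genes, Txnip and Fbxo30, were added after their values were seen, as were Hjurp, Lamp1, Atp6v1h, Mnt, Ndrg1, Odc1 and the uncalled immediate early genes. An exact permutation test of 2 against 2 libraries cannot go below 0.333 two-sided and was not used. Promoter windows are from RefSeq (GRCm38.p6), and E-box letters were searched on both strands. A few named members are not reported here. The 133 genes annotated at more than 1 place were left out. Same-numbered libraries did not deviate together (correlations of deviations -0.35 in mRNA, 0.02 in ChIP, 0.01 in input), so they were not treated as pairs. Replicates left out, other scalings, filters and other membership rules are described with the closing observations.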

Additional observations from a re-analysis of the deposited data

How the results depend on the processing

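Members above 4-OHT input, 707 in the reported fit, numbered 653 with DESeq2, 705 with a filter on low counts and 677 to 706 when 1 library was left out. TMM factors, which scale the regions' shared enrichment away by construction, gave 141 above input, a median log2 of 0.45 against 2.35 as reported (2.25 to 2.48 with 1 library left out), and 1 member lower in input with 4-OHT. For 4-OHT against EtOH ChIP, TMM factors gave 140 lower, 6 higher and a median of -0.27. DESeq2's own size factors gave 89 lower, 5 higher and -0.26. The median was -2.14 for a top 10% rule and -1.84 for a top 50% rule. In mRNA, higher genes ranged from 8 to 22 and lower genes from 10 to 17 with 1 library left out. The share higher was 3.99% for the top 10% and 1.34% without CLOCK-BMAL1 targets. With the replicate number as a block, 10 genes were higher and 11 lower, but the numbers did not pair the samples. A crossed pairing, added after the data were seen, gave 47 higher and 41 lower. Of the 28 called genes, 12 held in all 8 alternatives other than the crossed pairing. CACGTG shares were 61.0% for the top 10% and 49.6% by signal per length.

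Under TMM factors the sign against 4-OHT input turned at 140 of 708 members, among the named ones at Rn45s (-0.90), Per1 downstream (-0.21), Nampt (-0.26), Piezo1 (-0.0047), Sfi1 (-1.12) and the Pisd-ps3 regions (-1.21, -1.45 and -1.24). The sign of 4-OHT over EtOH ChIP turned at 148 members under DESeq2's own size factors and 142 under TMM factors, among the named ones at Rn45s (1.32 and 1.31), Tsc1 (0.27 and 0.27), Piezo1 (0.42 and 0.39), Kat6a (0.47 and 0.44), Sfi1 (1.32 and 1.30) and the Pisd-ps3 regions (1.05 and 1.04, 1.31 and 1.29, 1.41 and 1.40). The call above input at 2 Pisd-ps3 regions was also lost with DESeq2 and with a library left out, and at Sfi1 and the downstream Per1 region with DESeq2. Median reads per member were 29.5 and 50 in 4-OHT ChIP but 6 and 16 in 4-OHT inputs, so single ratios to input are coarse.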

Other observations

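Some genes carried more than 1 strong region. Of the 706 member genes 24 did, among them Mnt, a MAX-binding repressor gene, and the pseudogene Pisd-ps3 with 3 each. The others included Odc1, a polyamine synthesis gene, Foxo3, Ndrg1, Tfap4, Eif4a1 and Herpud1 with 2 each. In mRNA, Mnt gave a log2 change of 0.25 (edgeR adjusted p = 0.0785), Ndrg1 of 0.22 (adjusted p = 0.0569) and Odc1 of 0.15 (adjusted p = 0.431), and Bhlhe41, Cited2 and Klf10 were the ones called. These genes were picked by their number of regions.

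Among member genes with a promoter window, the 61 with 2 or more CACGTG matches had median levels of 40.03 and 45.9 RP10M in 4-OHT ChIP and 206 and 191 in EtOH ChIP. The 247 with neither CACGTG nor CATGTG had 20.4 and 22.2 in 4-OHT ChIP and 77.8 and 76.0 in EtOH ChIP. Median ratios to 4-OHT input were 7.82 and 5.19. Of the 282 tested genes with CACGTG in the window, 6 were higher and 6 lower in mRNA, and of the 241 tested with neither motif, 4 were higher and 6 lower, against 0.802% higher and 1.63% lower over all tested genes.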
